A study of Mus musculus with 16 samples.

Results

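Hair shaft keratins are the keratins of the hard, dead fibre of the hair. The set held 9 genes chosen by name, Krt31, Krt32, Krt33a, Krt33b, Krt34, Krt35, Krt81, Krt85 and Krt86, and a gene was taken as measured where a probe set had its symbol as the only annotated one. That gave 8 probe sets, 1 for each gene except Krt85, which was not analysed here, of 20380 probe sets with a single symbol. The arrays had been hybridised with RNA of whole skin from mice of the D2 line of K14deltaNB-cateninER transgenics and from wild type C57BL/6 mice, after 0, 1 or 7 days of 4-hydroxytamoxifen (4OHT). Transgenic skin had 2, 3 and 3 arrays at days 0, 1 and 7, and wild-type skin had 3, 3 and 2. The transgene makes a truncated, stable β-catenin fused to a part of the oestrogen receptor that 4OHT binds. Its keratin 14 promoter drives it in basal keratinocytes of the epidermis and the outer layer of the follicle. Only 1 transgenic line was used, its strain background, age and sex were not given, and skin given vehicle alone was not part of the 6 groups. Both genotypes had the drug, so time, drug and handling cannot be told apart within a genotype. The labels of 3 wild-type arrays speak of a single mouse and those of the other 13 arrays of mice, so an array may stand for more than 1 animal, and p-values measure the spread between arrays, part of which may be technical.

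A hair grows from a bulb of dividing matrix cells, whose daughters move up and become shaft cells or the cells of the inner root sheath that moulds the shaft. Shaft cells fill with filaments built from pairs of an acidic type I keratin and a basic type II keratin, and the filaments are then bound together by keratin-associated proteins. In human follicles KRT35 and KRT85 are the first hair keratins to appear, in matrix and precortex, KRT31, KRT33A, KRT33B, KRT81 and KRT86 follow in the cortex, KRT34 comes higher in the cortex, and KRT32 is a keratin of the cuticle. Follicles at rest hold a finished hair and make little new shaft. β-catenin acts on DNA through partners of the LEF and TCF family, and hair keratin promoters are long known to carry a site for LEF1.

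The type I genes of the set lie side by side. On chromosome 11 of GRCm38.p6, the annotation lists Krt33a, Krt33b, Krt34, Krt31, Krt32 and Krt35 with no other gene between them, and on chromosome 15 the type II genes Krt81 and Krt86 are neighbours. RefSeq promoter windows were at hand for 4 of the 9 genes, Krt31, Krt32, Krt33b and Krt34. They are shown because these 4 genes are neighbours that all rose at day 7, Krt32 by much less than the other 3. Each is given as the 250 bases before the gene's start, 5′ to 3′ on the gene's strand (GRCm38.p6), with capitals for 3 motifs. They are CTTTGAA, whose letters are of the kind that LEF and TCF factors bind, then AGTCCTG, a string that 3 of the windows share, and lastly TATAAA, as in a TATA box.
Krt33b, chr11:100029869-100030118, minus strand: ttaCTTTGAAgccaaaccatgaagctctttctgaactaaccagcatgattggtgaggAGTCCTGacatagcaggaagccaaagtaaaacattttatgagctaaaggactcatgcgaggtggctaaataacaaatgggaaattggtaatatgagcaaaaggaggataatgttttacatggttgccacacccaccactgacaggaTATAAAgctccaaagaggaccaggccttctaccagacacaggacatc
Krt34, chr11:100041555-100041804, minus strand: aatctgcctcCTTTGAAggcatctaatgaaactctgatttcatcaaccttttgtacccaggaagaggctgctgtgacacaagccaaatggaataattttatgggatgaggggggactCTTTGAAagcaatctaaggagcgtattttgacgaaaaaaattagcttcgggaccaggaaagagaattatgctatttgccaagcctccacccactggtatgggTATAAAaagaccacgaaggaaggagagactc
Krt31, chr11:100050552-100050801, minus strand: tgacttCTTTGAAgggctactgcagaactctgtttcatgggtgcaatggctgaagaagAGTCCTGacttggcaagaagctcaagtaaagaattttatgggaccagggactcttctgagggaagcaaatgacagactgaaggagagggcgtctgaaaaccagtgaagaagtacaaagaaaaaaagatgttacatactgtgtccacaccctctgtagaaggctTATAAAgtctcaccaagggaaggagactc
Krt32, chr11:100088270-100088519, minus strand: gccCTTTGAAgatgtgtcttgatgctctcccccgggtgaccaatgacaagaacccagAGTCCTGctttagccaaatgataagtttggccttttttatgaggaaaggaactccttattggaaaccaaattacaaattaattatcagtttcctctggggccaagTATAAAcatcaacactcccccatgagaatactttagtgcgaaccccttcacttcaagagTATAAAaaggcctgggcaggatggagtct

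CTTTGAA stood on the gene's strand in 4 of 4 windows, beginning 244 bases before the start in Krt31, 247 in Krt32, 247 in Krt33b and 240 in Krt34, which had a further copy at 133. In all 4 the outer copy went on as CTTTGAAG. Of 32851 promoter windows of this length, 4.46% held CTTTGAA and 1.42% held CTTTGAAG on either strand, and 0.204% held CTTTGAA on the gene's strand within the first 20 bases. AGTCCTG stood in 3 of the 4, beginning at 192, 193 and 193 bases, against 4.75% of all windows (either strand). TATAAA stood in all 4, nearest to the start at 29 bases in Krt31, 29 in Krt32, 47 in Krt33b and 31 in Krt34, against 12.4% of all windows (either strand). The 4 genes are neighbouring copies of one family, the motifs were picked after the sequences had been read, and a match is a description of letters, not a binding site. The first 20 bases are also where the outer copies in these 4 windows lie, so the 0.204% belongs to a stretch that fits them. On the gene's strand alone the shares of all windows were 2.38% for CTTTGAA, 2.43% for AGTCCTG and 7.59% for TATAAA. Of 5 other hair keratins with a window, 0 held CTTTGAA on the gene's strand, and Krt39 held CTTTGAAG on the opposite strand. AGTCCTG stood in 2 of these 5, Krt36 and Krt40, and TATAAA in 2, Krt40 and, on the opposite strand, Krt84.

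After 7 days of 4OHT, the hair shaft keratins were bright in transgenic skin and dim or at an even level in the other 5 groups. Intensities below are on a linear scale, after scaling every array to 1 common trimmed mean. For 8 of 8 genes the dimmest of the 3 transgenic day 7 arrays was brighter than the brightest of the other 13 arrays, which held for 15.7% of the 13890 probe sets tested. Without the transgenic day 7 arrays only Krt32 and Krt81 would have passed the filter that left out dim probe sets. The count therefore describes the pattern and is not a test of it. The summed intensity of the 8 genes was 7109 to 19149 in transgenic skin at day 7, against 717 to 955 in transgenic skin at day 0. In wild-type skin it was 782 to 841 at day 7 and 776 to 859 at day 0. In RNA of whole skin, more shaft cells and more RNA in each cannot be told apart.

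**Figure D1:**
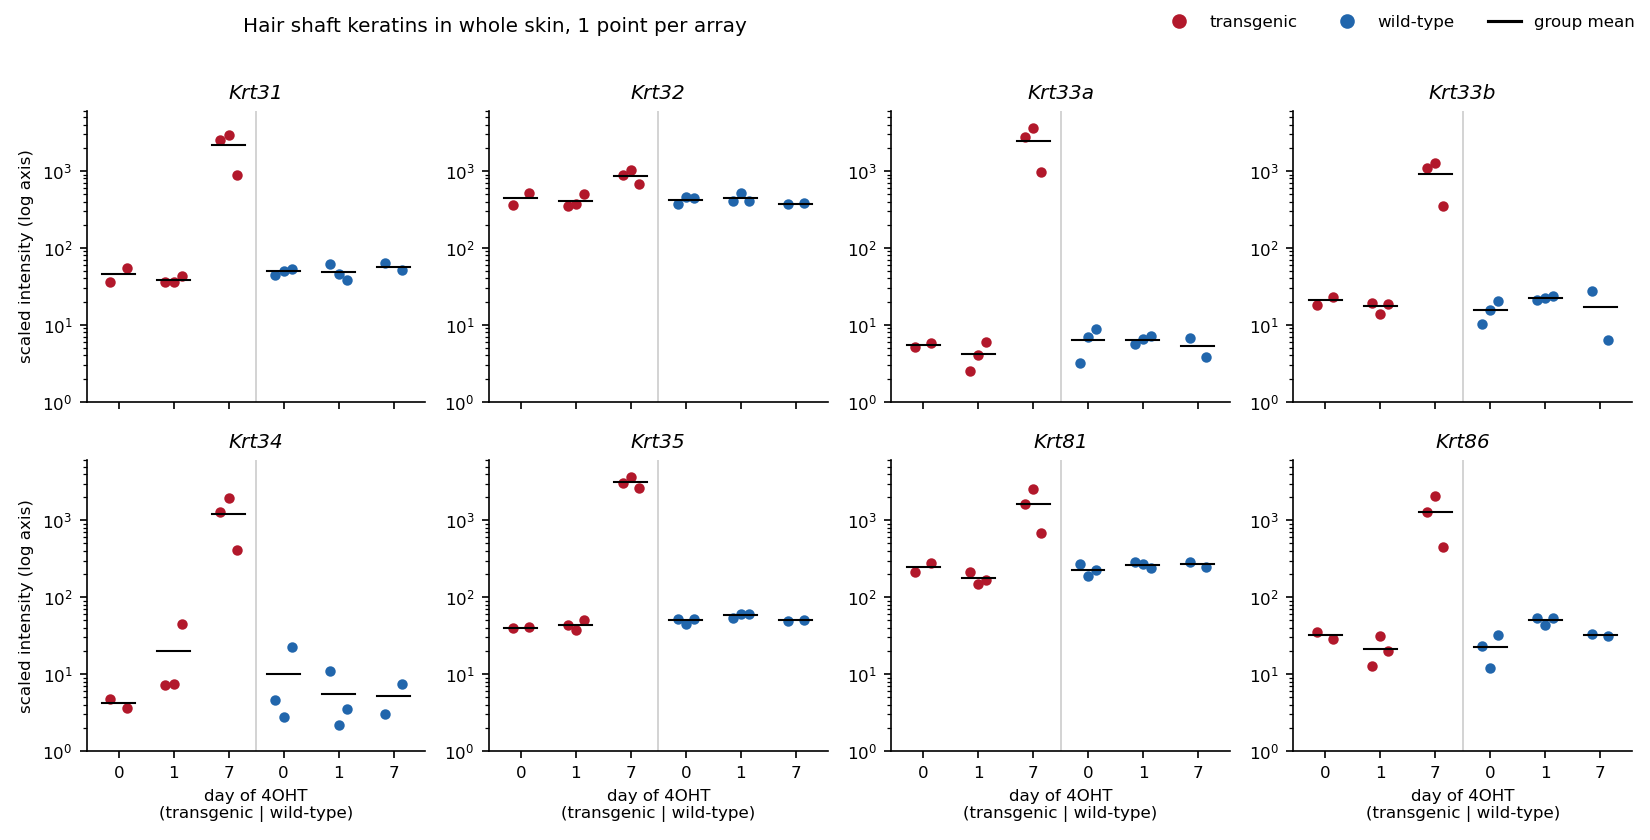
Scaled intensity (log axis) of the 8 hair shaft keratins on each of 16 arrays, by day of 4OHT, with transgenic skin left and wild-type skin right in each panel; a point is an array and a bar the group mean. Every transgenic day 7 array lies above the other 13 arrays of its panel, and replicate 3, drawn rightmost in that group, is the lowest of the 3.

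Krt35, a type I keratin and in human follicles the earliest of the shaft, had intensities of 3099, 3633 and 2669.9 on transgenic day 7 replicates 1, 2 and 3, against 40.1 and 40.4 at transgenic day 0. On the 13 arrays outside transgenic day 7 it lay between 37.1 and 61.3. The 3 day 7 arrays were close to each other and far from the rest. Its mean was 3134 ± 482 (SD, n = 3) at transgenic day 7 and 40.3 ± 0.234 (SD, n = 2) at transgenic day 0. The log2 difference was 5.44 ± 0.14 (SE, limma adjusted p = 5.75e-13), which is taken on log2(intensity + 32), so that changes from dim levels are understated.

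Krt33a, a type I keratin of the cortex, had the largest of the 8 differences. Its intensities were 2812, 3672 and 983 on the 3 transgenic day 7 arrays, against 5.20 and 5.78 at transgenic day 0, and between 2.50 and 8.79 on all 13 other arrays. The third array stood well below the first and second, yet far above the rest. The log2 difference between transgenic day 7 and day 0 was 5.88 ± 0.36 (SE, adjusted p = 2.56e-08). With an added value of 8 in place of 32 it was 7.33, and with the largest added value tried it was 4.12, below the 4.27 of Krt35 there.

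Krt33b, the neighbour and closest namesake of Krt33a, had 1090.5, 1261 and 352 at transgenic day 7, against 18.2 and 23.3 at transgenic day 0. The other 13 arrays reached at most 27.6. The log2 difference was 3.96 ± 0.37 (SE, adjusted p = 1.16e-06). Krt31, the type I keratin that fills the cortex with Krt33a and Krt33b, had 2569.9, 2985 and 888 at transgenic day 7, against 36.1 and 55.3 at transgenic day 0 and at most 62.7 elsewhere. This came to a log2 difference of 4.65 ± 0.34 (SE, adjusted p = 1.29e-07). Krt34, in human follicles a late keratin of the cortex, had 1276, 1937 and 406 at transgenic day 7, against 4.70 and 3.61 at transgenic day 0. Its log2 difference was 4.85 ± 0.46 (SE, adjusted p = 1.4e-06). For these 3 genes the groups did not overlap, as for 32.1% of all probe sets in this direction, and replicate 3 was again the lowest.

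The type II keratins of the cortex followed. Krt86 had 1280.2, 2093 and 448 at transgenic day 7, against 35.5 and 28.5 at transgenic day 0, a log2 difference of 4.11 ± 0.41 (SE, adjusted p = 1.87e-06). Its intensity on the 13 other arrays was at most 54.0. Krt81 had 1606, 2526 and 688, against 212 and 281, a log2 difference of 2.39 ± 0.34 (SE, adjusted p = 6.15e-05). Outside transgenic day 7, Krt81 lay between 148 and 289. Both genes had groups that did not overlap, as for 32.1% of all probe sets in this direction, with replicate 2 highest. Mutations of the human genes KRT81 and KRT86 cause the beaded hair disease monilethrix.

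Krt32, the type I keratin of the cuticle, changed least. It had 898, 1042 and 674 at transgenic day 7, against 365 and 516 at transgenic day 0, and lay between 349 and 516 on the other 13 arrays. The groups did not overlap, as for 32.1% of all probe sets in this direction, and the log2 difference was 0.93 ± 0.19 (SE, adjusted p = 0.00123). Its level on the 13 arrays was even across both genotypes and all days, and whether it came from Krt32 transcript or from other RNA on these probes was not tested.

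Against transgenic day 0, 8 of 8 probe sets rose at day 7, where 19.3% of all 13890 probe sets rose, with a median log2 difference of 4.38 against 0.03 over all. Of the 8, only Krt32 and Krt81 would have passed the filter on dim probe sets without the transgenic day 7 arrays, so that the other 6 entered the test through the group in which they were bright. With no filter, 8 of 8 rose as well, against 14.5% of 20380 probe sets, with no adjusted p above 0.00234. Against transgenic day 1, 8 of 8 rose at day 7 (23.9% of all), by log2 differences of 1.02 for Krt32 to 5.93 for Krt33a. With no filter 8 of 8 rose against day 1 too, where 19.2% of 20380 probe sets rose. That comparison shares its day 7 arrays with the one before.

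The day 7 levels were then set against wild-type skin, which had the same days under drug. In comparisons of the genotypes, transgene, line and strain cannot be told apart, since the background of the single line was not given. At day 7, 8 of 8 were higher in transgenic than in wild-type skin (19.3% of all), with log2 differences from 1.12 for Krt32 to 5.89 for Krt33a and a median of 4.28 against 0.04 over all probe sets. With no filter 8 of 8 were higher as well, against 13.8% of 20380 probe sets. Krt35 stood at 3134 ± 482 (SD, n = 3) in transgenic skin and at 50.3 ± 1.08 (SD, n = 2) in wild-type skin. Its genotypes differed by 5.26 ± 0.14 on the log2 scale (SE, adjusted p = 7.26e-13). In wild-type skin, day 7 against day 0 gave log2 differences of -0.16 for Krt32 to 0.25 for Krt86, and 0 of 8 passed in limma (9.38% of all in either direction), 0 of them at an unadjusted p under 0.05. Wild-type day 7 against day 1 likewise gave 0 of 8 (2.33% of all), with 0 at an unadjusted p under 0.05.

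The change to day 7 was also compared between genotypes directly, as transgenic change minus wild-type change. It was larger in transgenic skin for 8 of 8 (10.9% of all). With no filter it was larger for 8 of 8 too, against 7.3% of 20380 probe sets. The difference of the changes was 5.92 ± 0.51 for Krt33a (SE, adjusted p = 3.6e-06), 5.43 ± 0.20 for Krt35 (adjusted p = 1.28e-10) and 4.99 ± 0.66 for Krt34 (adjusted p = 0.000156). It was 1.09 ± 0.27 for Krt32 (adjusted p = 0.00998), a call that ended when the arrays were left unscaled (0.98, adjusted p = 0.112) and without transgenic day 0 replicate 1 (0.85, adjusted p = 0.061).

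**Figure D2:**
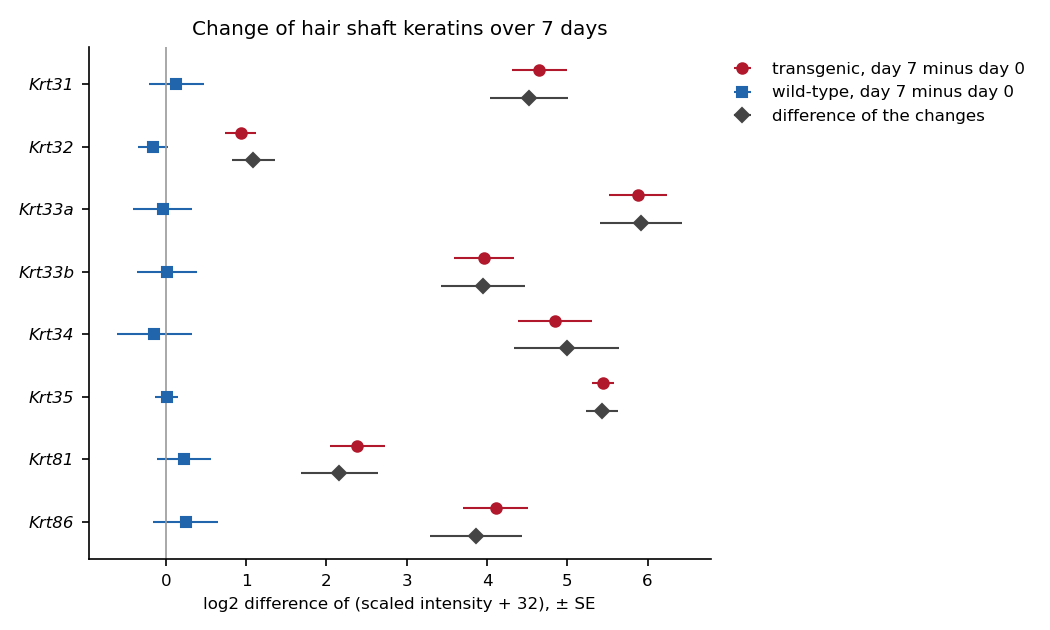
Log2 difference between day 7 and day 0 (x axis, ± SE of the fit) for the 8 genes (rows) in transgenic skin (circles) and wild-type skin (squares), with the difference of the changes (diamonds). Transgenic changes run from 0.93 for Krt32 to 5.88 for Krt33a, and wild-type changes from -0.16 to 0.25.

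At day 1 no change of these genes passed the test in either genotype. Small early changes could be missed, since most of these genes were dim then and the spread in the fit included that of transgenic day 7. In transgenic skin the log2 differences from day 0 ran from -0.43 for Krt81 to 0.45 for Krt34, and 0 of 8 passed in limma (8.94% of all in either direction), 0 at an unadjusted p under 0.05. Krt34 was at 7.18, 7.45 and 45.1 on the 3 transgenic day 1 arrays, against 4.70 and 3.61 at transgenic day 0, so its mean rests on 1 array. In wild-type skin 0 of 8 passed (21.5% of all), 0 at an unadjusted p under 0.05, and the largest log2 difference was 0.61 ± 0.36 for Krt86 (SE, adjusted p = 0.24). Krt86 had 54.0, 43.7 and 52.9 in wild-type skin at day 1, against 23.1, 11.9 and 31.97 at day 0. With Krt33b and Krt35 it was 1 of 3 genes whose day 1 arrays all lay above the day 0 arrays, as did 20.7% of all probe sets. Without transgenic day 7 replicate 3, whose Krt86 value widens the spread shared by all groups, the difference was 0.61 ± 0.20 (SE, adjusted p = 0.0437). Between genotypes, 0 of 8 passed at day 0 (0.0072% of all), at day 1 (1.08%) or in the change to day 1 (0.367%), each with 0 at an unadjusted p under 0.05. At day 1, Krt33b, Krt35, Krt81 and Krt86 were lower on every transgenic than on every wild-type array, as were 14.4% of all probe sets.

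For each gene transgenic day 7 was the highest of the 6 groups. The tests among the other 5 groups passed for 0 of 8 genes with all arrays in the fit, whose spread includes that of transgenic day 7, and for Krt86 alone, in wild-type day 1 against day 0, without transgenic day 7 replicate 3. Those tests were of days 0 and 1 within transgenic skin, of all 3 days within wild-type skin, and of the genotypes at days 0 and 1.

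The 3 transgenic day 7 arrays differed among themselves in a graded way. For 8 of 8 genes replicate 3 was lowest and replicate 2 highest, an order found in 17.1% of all probe sets tested. After taking away the transgenic day 0 mean, the intensity of Krt35 on replicate 3 was 79.1% of the mean of replicates 1 and 2. For Krt32 it was 44.1%. For the other 6 it was lower still and nearly alike, from 24.2% for Krt81 and 25.1% for Krt34 to 30.2% for Krt33a and 30.8% for Krt31. On replicate 3, Krt35 therefore stood nearer to its level on replicates 1 and 2 than the cortex keratins did to theirs, on 1 array and with no test.

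The same ratio, without subtraction, was taken for other gene lists, with the brightest tested probe set of each gene. Over 9064 genes the median was 101%, with a 10th percentile of 81.9% and a 90th of 129.8%. Medians were 22.7% over the 18 of 26 keratin-associated protein genes that were tested and 31.1% over the 8 hair shaft keratins. The filter asked for 2 arrays, so a gene bright on replicates 1 and 2 alone could enter, which favours low ratios. Krtap6-5, for example, had 309, 808 and 36.8 on replicates 1, 2 and 3. The medians were 75.3% over 6 genes of the layers around the shaft, 87.1% over 17 regulators of hair keratins and 112% over 14 proliferation markers. Signal already present at day 0 draws this ratio toward equal levels. Krt32 was at 69.5% here and at 44.1% after subtraction. Of the 17 regulators 5 did not pass at day 7 against day 0 and 1 was lower, so the lists are not compared on equal terms. Macrophage markers had a median of 166% over 15 genes, so replicate 3 also differed in an immune cell list, and the part of this in the keratin values was not tested. The ratio of 3′ to 5′ signal of replicates 1, 2 and 3 was 0.915, 0.932 and 0.911 for Gapdh and 1.46, 1.28 and 1.39 for actin, within the ranges over all 16 arrays of 0.884 to 1.26 and 1.28 to 1.87.

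**Figure D3:**
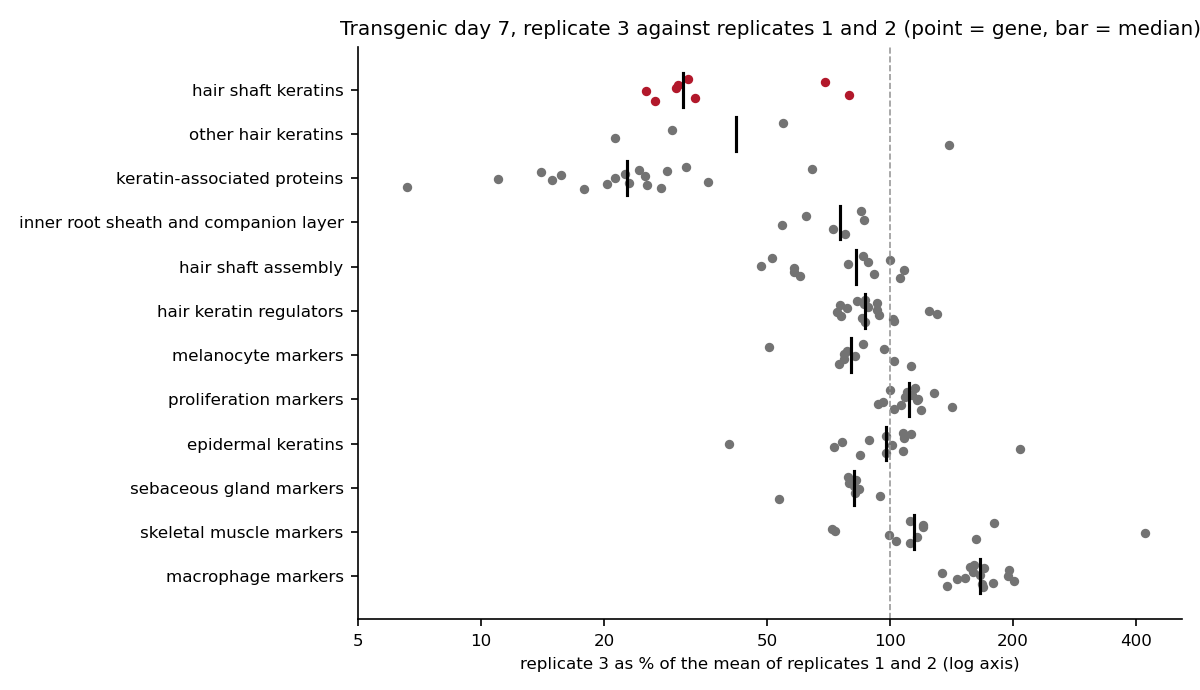
Scaled intensity of transgenic day 7 replicate 3 as a percentage of the mean of replicates 1 and 2 (log axis), for tested genes of 12 lists (rows); a point is a gene, a bar the list's median, and the dashed line marks equal levels. Of the 8 hair shaft keratins (top row, red), Krt35 and Krt32 lie at 79.3% and 69.5% and the other 6 between 25.3% and 33.3%.

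Without replicate 3, the log2 differences of transgenic day 7 against day 0 were larger for 8 of 8, at 6.45 for Krt33a, 5.48 for Krt34 and 2.89 for Krt81. With replicate 2 left out they were smaller, at 5.51, 4.39 and 1.97 for the same genes. In each of these fits 8 of 8 passed, as with all arrays, where 19.3% of all probe sets rose. Shares of all probe sets in the fits without an array are not given here. Only Krt32 and Krt81 would have passed the filter without the transgenic day 7 arrays.

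Other genes of the hair fibre were described from lists, without the filter on dim probe sets, for transgenic day 7 against day 0, with the values of named genes from the fit with the filter. Without the filter 14.5% of all probe sets rose and 11.6% were lower, the shares against which the counts of each list stand. Of 4 other hair keratins with a probe set, 3 rose. Krt83, a type II cortex keratin whose gene lies next to Krt86, stood at a mean of 605 at transgenic day 7 and 9.23 at transgenic day 0, a log2 difference of 3.67, and its mean in wild-type skin at day 7 was 75.3. Krt82, the type II keratin of the cuticle, differed by 3.13 and Krt36 by 1.62. Krt84, known in mice from the tongue, had 102 at transgenic day 7 and 113 at day 0 (log2 difference -0.13, adjusted p = 0.673). Of 26 keratin-associated protein genes 20 rose, with Krtap8-1 at a log2 difference of 5.31 and Krtap3-1 at 5.24. All 6 measured genes of the layers around the shaft, the inner root sheath and the companion layer, rose. Krt25, an inner root sheath keratin, differed by 7.89 and Krt75, the companion layer keratin, by 2.08.

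Of 12 genes that act on shaft proteins or join shaft cells, 4 rose, 1 was lower and 7 did not pass. S100a3, a calcium-binding protein of the cuticle, differed by 5.17, Padi3, an arginine deiminase of the follicle, by 4.51, and Padi1 by 2.79. Tgm3, a transglutaminase, had 188 at transgenic day 7 and 220.4 at day 0 (log2 difference -0.19, adjusted p = 0.35). Of 18 regulators 12 rose and 1 was lower. Msx2, a homeobox factor of the matrix, differed by 2.73, and Hoxc13, a homeobox factor that binds hair keratin promoters, by 1.90, with a mean of 834 at transgenic day 7 against 203 at day 0. Foxn1, the factor lost in nude mice, differed by 0.91 (adjusted p = 0.000521).

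Lists of other cell types and of the cell cycle gave mixed counts. Of 11 melanocyte markers 8 rose, with Pmel, a pigment granule protein, at 3.14, and the summed intensity of the list was 9495 to 11732 at transgenic day 7 and 2566 to 3365 at day 0. All 14 proliferation markers rose, their sum being 16860.4 to 18473 at transgenic day 7 and 6636 to 6849 at day 0. Of 12 skeletal muscle markers 10 were lower. Of 8 sebaceous gland markers 1 rose and 2 were lower, where 14.5% of all probe sets rose and 11.6% were lower. Of 13 epidermal keratins 3 rose and 3 were lower, at a median of -0.08. Of 15 macrophage markers 0 passed in limma and 0 had an unadjusted p under 0.05, with sums of 23632 to 39797 at transgenic day 7 and 23459 to 27361 at day 0. In wild-type skin their sum was 56878 to 57611 at day 7, and 14 of 15 were lower in transgenic than in wild-type skin at that day (17.7% of all). The part of these lists' values in the keratin values was not tested. The list medians stand beside 0.06 over all 20380 probe sets, and the lists had been chosen with earlier results of these arrays known.

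**Figure D4:**
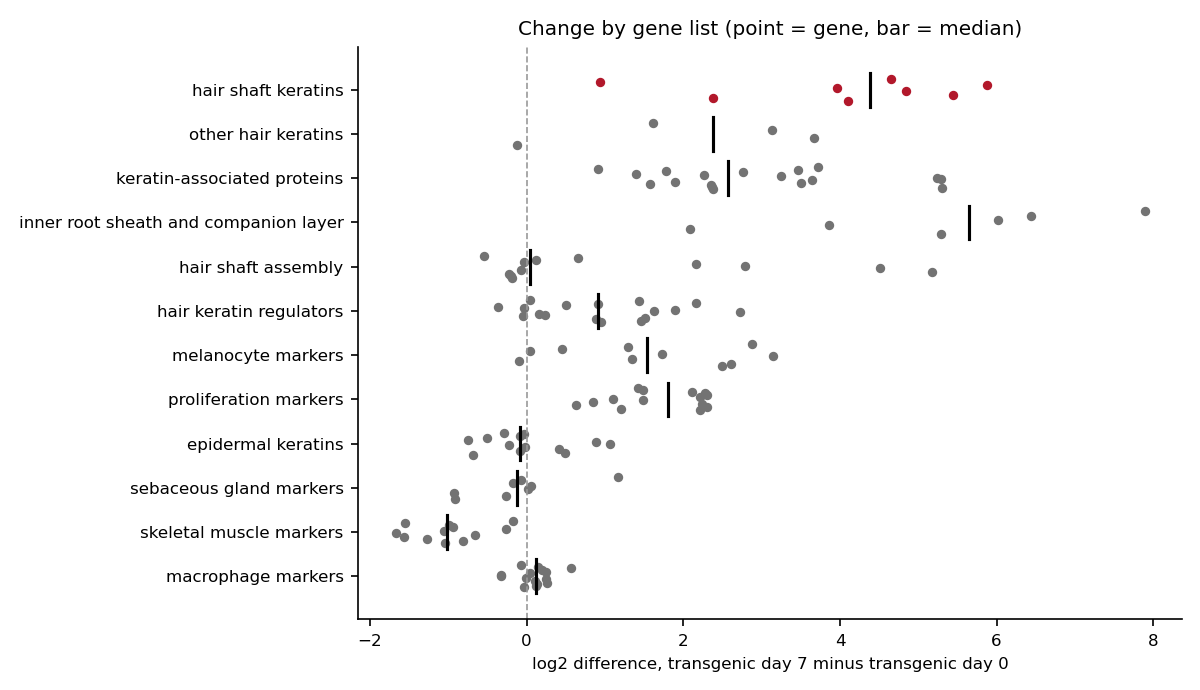
Log2 difference between transgenic day 7 and transgenic day 0 (x axis) for the tested genes of 12 lists (rows); a point is a gene, a bar the list's median, and the dashed line marks 0. The hair shaft keratins (top row, red) lie between 0.93 and 5.88, and epidermal keratins lie on both sides of 0.

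Genes that behaved most like the shaft keratins over all 16 arrays were found by the mean absolute difference, in log2 units, between a gene and the average of the 8, each set to 0 at transgenic day 0. Of 9056 other genes the nearest were Krtap4-2 (0.19), the inner root sheath keratin Krt72 (0.20), the gluconeogenic enzyme gene Fbp1 (0.22), Padi3 (0.22), Krtap1-5 (0.23), the crystallin gene Cryba4 (0.23), Krtap5-2 (0.23) and the methyltransferase gene Gnmt (0.24). Among the 8 shaft keratins themselves the same distance to the average of the other 7 was smallest for Krt33b, at 0.14, and largest for Krt32, at 0.81. For Krt34 (0.39), Krt35 (0.45), Krt33a (0.46) and Krt81 (0.51) it also exceeded that of every gene just named. The genes named were picked from 9056 for small distances, so their being nearer follows largely from the ranking. Their distance was also to the average of all 8, not of 7. How closely the shaft keratins hold together was not tested. Gnmt had 1267, 1396 and 691 at transgenic day 7, and at most 11.7 on the other 13 arrays. Fbp1 had 2009, 2057 and 1377, and at most 146.9 elsewhere. The measure favours genes with a change of the same size, and 4 of the 8 were kept with an added value of 8 and 5 with the largest added value tried.

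Hair keratins are similar in sequence, and a probe set of one may also read RNA of another. None of the 8 probe sets has the suffix by which the array's maker marks sets shared between transcripts, while that of Krt82 does. Probe sequences were not used here, so how much of each value is shared was not tested. The check of the transgene rested on Esr1, whose sequence the fusion carries, at 80.7 to 408 on the 8 transgenic arrays and 13.3 to 49.97 on the 8 wild-type arrays. In transgenic skin Esr1 had 408 and 401 at day 0, 299.7, 159 and 80.7 at day 1, and 218, 256 and 189 at day 7. Ctnnb1, which encodes β-catenin, lay between 5239 and 7580.1 on transgenic and between 4812 and 5892 on wild-type arrays, and these ranges overlapped.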

How the data were processed

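The authors deposited linear intensity values for 22690 probe sets on 16 Affymetrix mouse arrays, 1 per sample. Per the labels, biotinylated cRNA was made from total RNA. The summarising software and any scaling are not given in the sources used here, and no detection calls were used, so dim intensities are not called absent. Trimmed means (2% removed at each end) ran from 359 to 548, and arrays were scaled to 1 common trimmed mean. Values were taken as log2(intensity + 32). Tested were the 13890 probe sets with 1 gene symbol that exceeded the array's 40th percentile on 2 or more arrays. A model with 1 mean per group was fitted to the 16 arrays with limma 3.58.1 (R 4.3.3), an intensity trend and 10 residual degrees of freedom, and 11 two-sided comparisons were made. Benjamini-Hochberg adjustment ran over all 13890, and a probe set rose, was lower or passed at an adjusted p under 0.05. The fit was tested on simulated data. The number of arrays limits the precision.

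Samples were grouped by their titles. The genes, lists and comparisons were chosen with earlier results of these data known. Named were every probe set of the set, up to 4 genes per list with the smallest p and the 8 nearest genes. Krt36, Krt75, Krt84, Tgm3 and Foxn1 were added after their values were seen. Symbols came from the platform annotation. Deviations of same-numbered arrays had correlations of -0.17 to 0.18. They were all positive but not all over 0.1 in transgenic against wild-type skin at day 1 (0.09, 0.12 and 0.18), and in no comparison with 3 pairs was every pair over 0.1. Wild-type day 7 against day 0, with 2 pairs, had 0.12 and 0.18. No pairing was used. Alternatives covered scaling, the added value, filters, rows tested, the variance model, a replicate block and leaving out each array. Figures used matplotlib 3.10.9.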

Additional observations from a re-analysis of the deposited data

Results flagged for a closer look

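The change to day 7 differed between genotypes, by a test of the difference itself, for each of the 8 hair shaft keratins measured. It was larger in transgenic skin, as for 10.9% of all probe sets tested. Only Krt32 and Krt81 would have passed the filter without the transgenic day 7 arrays. With no filter 8 of 8 passed too, against 7.3% of 20380 probe sets. With unscaled arrays Krt32 did not pass (limma adjusted p = 0.112). Transgenic change minus wild-type change was 5.92 for Krt33a, 5.43 for Krt35, 4.99 for Krt34 and 4.52 for Krt31 on the log2 scale. It was 3.95 for Krt33b, 3.86 for Krt86, 2.16 for Krt81 and 1.09 for Krt32. The test passed for 7 of the genes whichever of the 16 arrays was left out, and for Krt32 in all cases but 1, without transgenic day 0 replicate 1 (0.85, adjusted p = 0.061 in limma).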

How the results depend on the processing

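Counts of hair shaft keratins past the threshold were recomputed in 11 comparisons under 27 alternatives, 16 of which left out 1 array. They were equal to those given, 8 or 0, with 2 exceptions. Leaving out 1 array moved wild-type day 1 against day 0 between 0 and 1, the 1 being Krt86 without transgenic day 7 replicate 3. The genotype difference in the change to day 7 counted 7, without Krt32, when arrays were left unscaled and without transgenic day 0 replicate 1, and the cause was not tested. With the replicate number as a block, transgenic day 7 against day 0 kept 8, with Krt33a at 5.99 and Krt32 at 0.94, and the block changed no other count. Single arrays moved the log2 difference of transgenic day 7 against day 0 between 5.51 and 6.45 for Krt33a, 5.33 and 5.56 for Krt35, 1.97 and 2.89 for Krt81, and 0.70 and 1.16 for Krt32. Where 1 array of a group was left, it was assumed to vary like the other groups. The added value set the size of changes from dim levels, Krt34 standing at 6.38 with 8 and 3.13 with the largest tried. With unscaled arrays Krt32 was at 0.79 (adjusted p = 0.0291) and the median of all probe sets at -0.10. Without that scaling 17.6% of probe sets passed in transgenic day 7 against day 0, 34.7% of them higher, against 36.3% and 53% with it. In the same comparison 26.1% passed without the filter. Signal over background limits what can be said of levels outside transgenic day 7, since 6 of the 8 genes were dim there.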
